A study of Mus musculus with 18 samples.

Results

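The genes followed are 10 members of the glutathione S-transferase superfamily: Gsta3, Gstm1, Gstm2, Gstm5, Gstp1, Gstt1, Gsto1, Gstz1, Gstk1 and Mgst1. They were chosen by symbol and make up 10 of the 21859 rows of the count table, and Gsta4, the relative that the series' title names, is given only for comparison. All 10 passed the filter on low counts, with 15944 rows tested in all. Glutathione S-transferases join the tripeptide glutathione to reactive, electrophilic molecules such as the aldehydes that form when membrane lipids are oxidised, so that the conjugate can be exported and broken down. The soluble enzymes fall into sequence classes: alpha (Gsta3), mu (Gstm1, Gstm2, Gstm5), pi (Gstp1), theta (Gstt1), omega (Gsto1) and zeta (Gstz1). Gstk1 encodes the kappa enzyme of mitochondria and peroxisomes, and Mgst1 a membrane-bound enzyme of the endoplasmic reticulum and outer mitochondrial membrane. The retinal pigment epithelium (RPE) is a pigmented layer that takes up the lipid-rich outer segments shed by photoreceptors and lives under high oxidative load.

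RNA was sequenced in 18 libraries of mouse RPE, and reads were counted for each gene. The Young (7 libraries) and Old (4 libraries) groups carry no vector by their labels. The Old control group (3 libraries) received AAV2-tTA, an adeno-associated virus vector carrying a tetracycline-controlled transactivator. The Old OSK group (4 libraries) received AAV2-tTA together with TRE-OSK, in which a promoter driven by tTA carries the reprogramming factors Oct4 (gene Pou5f1), Sox2 and Klf4. Strain, sex, age in months, vector dose and time after injection were not used here, nor any promoter that restricts tTA to a cell type. Nothing in the labels says which libraries came from separate animals, so p-values measure the spread between these libraries, which may in part be technical. Totals ranged from 18104828 to 32348136 counts per library, and the lowest count of any of the 10 genes in any library was 147 (Gstm2). The names of 6 libraries carry a letter M that the labels do not explain: Young replicates 5, 6 and 7, Old control replicates 2 and 3, and Old OSK replicate 4.

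The transcripts of the 3 factors were checked first, and then the markers of cell types. Pou5f1, the gene of Oct4, lay between 50.15 and 97.4 CPM (each gene's reads as parts of a common library size, scaled by edgeR's TMM factors) in the Old OSK libraries and at or below 3.75 CPM in the 14 others, and Sox2 lay between 70 and 115.4 CPM against at most 15.9 CPM. Klf4 had 155 to 431.6 CPM in Old OSK and overlapped Old, where replicate 4 had 216.2 CPM, and it was called higher in Old than in Young (2.19, adjusted p = 0.0347 with edgeR). All 20 markers of RPE were present, but 18 of 20 were called lower in Old OSK than in Young, where 46.4% of all rows were called. Their summed level ran from 50910 to 76160 CPM in Young and from 19890 to 35130 CPM in Old OSK. Between Old and Young 3 of the 20 were called lower. Between Old OSK and Old control 0 were called, with a median log2 change of -0.875, and between Old OSK and Old 0, with -0.895. Markers of other cell types varied widely between libraries of 1 group. The 8 markers of ocular surface epithelium (keratins Krt5, Krt12, Krt13, Krt14 and Krt15, with Trp63, Epcam and Cdh1), a list added after the data had been seen, were above 0 in every library. Their summed level had its lowest, median and highest value at 167.2, 1025 and 5122 CPM in Young, at 884.3, 6346 and 17440 CPM in Old, at 1099, 2573 and 4449 CPM in Old control and at 3320, 16780 and 24150 CPM in Old OSK. The 6 markers of ciliary epithelium (Optc, Zic1, Zic2, Otx1, Msx1, Wnt2b), added in the same way, summed to 18.28 to 390.1 CPM in Young, 113.9 to 273.6 CPM in Old, 43.59 to 240.8 CPM in Old control and 156.5 to 301.6 CPM in Old OSK. In bulk tissue, fewer cells of a type and less RNA per cell cannot be told apart.

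Levels of different genes were compared as CPM per kilobase of annotated exon. Gsto1, whose enzyme reduces dehydroascorbate and arsenic species and carries a cysteine in place of the usual tyrosine or serine of the active site, ranked first in every group, from 434.3 ± 370.9 CPM per kilobase in Young (SD, n = 7) to 3334 ± 1996 in Old OSK (SD, n = 4). In Young its libraries ran from 47.1 to 1154 CPM per kilobase and so overlapped Gstp1 (53.65 to 68.39), Mgst1 (34.31 to 87.22) and Gstm5 (47.14 to 68.53), whose own ranges overlapped as well. Gstm1 (21.31 to 45.44), Gsta3 (10.73 to 53.1) and Gstt1 (24.42 to 34.01) followed without separation. Gstk1 (8.907 to 14.71), Gstm2 (4.925 to 16.56) and Gstz1 (7.708 to 10.48) formed the lowest, overlapping group. In Old OSK the upper part of the order was spread apart, with Gsto1 at 716.5 to 5566 CPM per kilobase, Gstm5 at 144.6 to 249.6, Gsta3 at 73.04 to 107.4 and Gstp1 at 53.76 to 67.95. Gstz1 ranked last in every group, with the longest merged exons of the 10 genes (5088 bases, followed by Gsta3 with 4344). In plain CPM its Young mean of 45.53 was above those of Gstk1 (18.94) and Gstm2 (19.72). Its place in the order therefore depends on the exon length used.

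**Figure D1:**
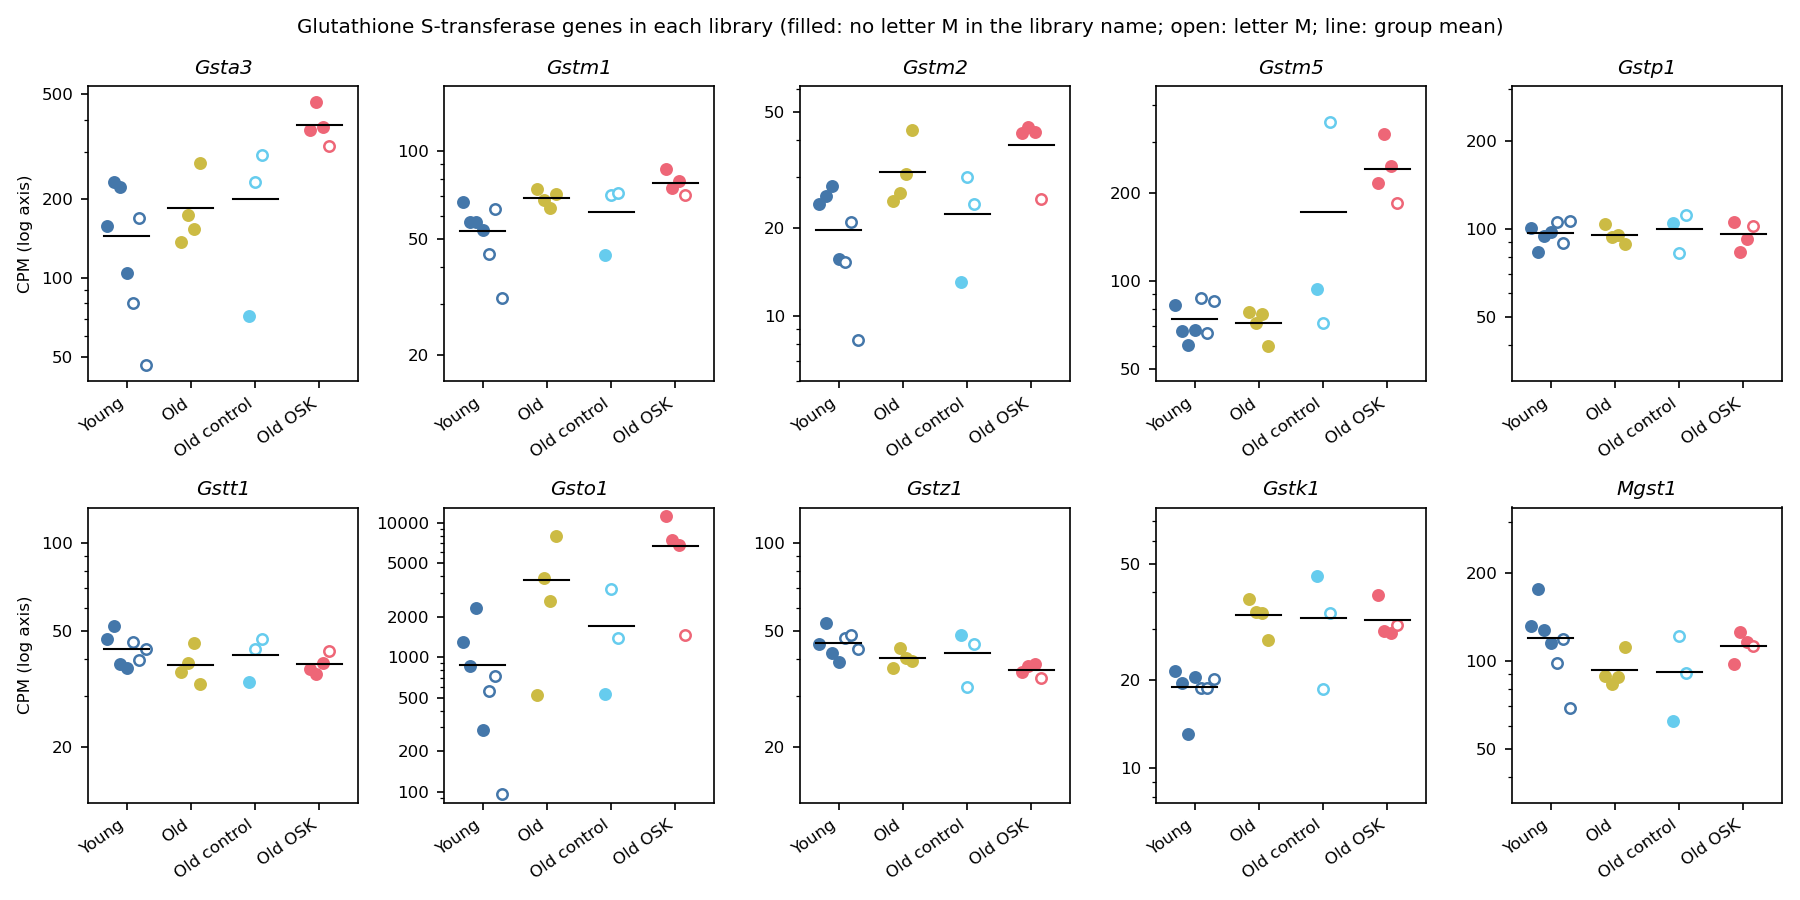
Level of each of the 10 genes in each of the 18 libraries (y axis: CPM on a log axis; x axis: group; open circles: libraries with a letter M in their name; line: group mean). Gstp1 stays between 82.8 and 111.7 CPM throughout, Gsto1 spans 95.29 to 11260 CPM, and the 4 Old OSK libraries of Gsta3 lie above all others.

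The comparison of Old with Young asks how the genes stand with age in mice without vector. One of the 10 was called, meaning an adjusted p under 0.05 (edgeR's quasi-likelihood test, Benjamini-Hochberg over all 15944 rows), against 9.56% of all rows tested. Of the 10 fitted changes 5 were positive, with a median of 0.17 on the log2 scale beside -0.004 over all rows. The gene called was Gstk1, at position chr6:42245935-42250447 of GRCm38 on the plus strand. Its Young libraries had 13.08 CPM at the lowest, 19.53 at the median and 21.61 at the highest, and its Old libraries had 37.88, 34.28, 34.04 and 27.59 CPM. Every Old library stood above every Young library. Gstk1 was higher in Old by 0.82 on the log2 scale (SE 0.18, adjusted p = 0.0139 with edgeR), or 1.77-fold, and stayed called when any 1 of the 11 libraries was left out (0.75 to 0.90, largest adjusted p 0.0406). Among libraries without M, 4 Young and all 4 Old, the difference was 0.84 (SE 0.17, adjusted p = 0.0333). Within groups Gstk1 deviated in step with the RPE marker score (Pearson r = 0.772, Spearman rho = 0.626 over 18 libraries that share depth and composition), while between the groups the RPE score was higher in Young (9.50 to 9.72 in mean log2 CPM) than in Old (8.87 to 9.36).

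Immune markers moved with age beside Gstk1. Their list of 12 had 9 called higher in Old, its summed level ran from 511.1 to 689.6 CPM in Young and from 794.3 to 1276 CPM in Old, and its score did not overlap between these groups (2.67 to 3.24 against 4.45 to 5.23). With the immune score in the model Gstk1 kept its sign at 1.73 (SE 0.70) and was not called (adjusted p = 0.487 with edgeR). That score separates the groups almost as the labels do, so its part and that of age cannot be told apart. With both the ocular surface and ciliary scores in the model, an alternative chosen after seeing the data, Gstk1 was higher by 0.98 (SE 0.20, adjusted p = 0.0189 with edgeR).

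Gsto1 had the largest fitted change with age among the 10 and the widest spread. At chr19:47854970-47864790, it read 95.29 CPM at the lowest, 727.8 at the median and 2335 at the highest in Young, and 527.2, 3905, 2598 and 7953 CPM in Old. Old replicate 1 lay within the Young range, and the other 3 Old libraries lay above it. The fitted difference was 2.09 on the log2 scale (SE 0.74, adjusted p = 0.0783 with edgeR) and missed the threshold. It was called without Old replicate 1 or without Young replicate 3 (adjusted p = 0.0357 each) and in DESeq2 (adjusted p = 0.0288), and fell to 1.42 (adjusted p = 0.361) without Old replicate 4. Old replicate 4 also had the highest and Old replicate 1 the lowest ocular surface marker sum of its group. With the ocular surface score in the model the difference was -0.11 (SE 0.37).

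The other members did not pass the test between Old and Young. The mu-class genes Gstm2 and Gstm1, whose products conjugate a broad range of electrophiles, had fitted differences of 0.66 (SE 0.28, adjusted p = 0.135 with edgeR) and 0.37 (SE 0.17, adjusted p = 0.148). Mgst1 had -0.36 (SE 0.20, adjusted p = 0.243), Gstt1 -0.18 (adjusted p = 0.308) and Gstz1 -0.18 (adjusted p = 0.265). Gsta3, Gstm5 and Gstp1 had 0.36, -0.04 and -0.018. With the ciliary score in the model, an alternative chosen after seeing the data, 4 more members were called with edgeR. Gsto1 (2.18), Gstm2 (0.62) and Gstm1 (0.34) were higher in Old, and Mgst1 (-0.40) was lower. Over all rows, 1524 were called in the main model and 0 to 2452 across the alternatives. These 4 calls were not compared with the share of all rows called in the ciliary fit.

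**Figure D2:**
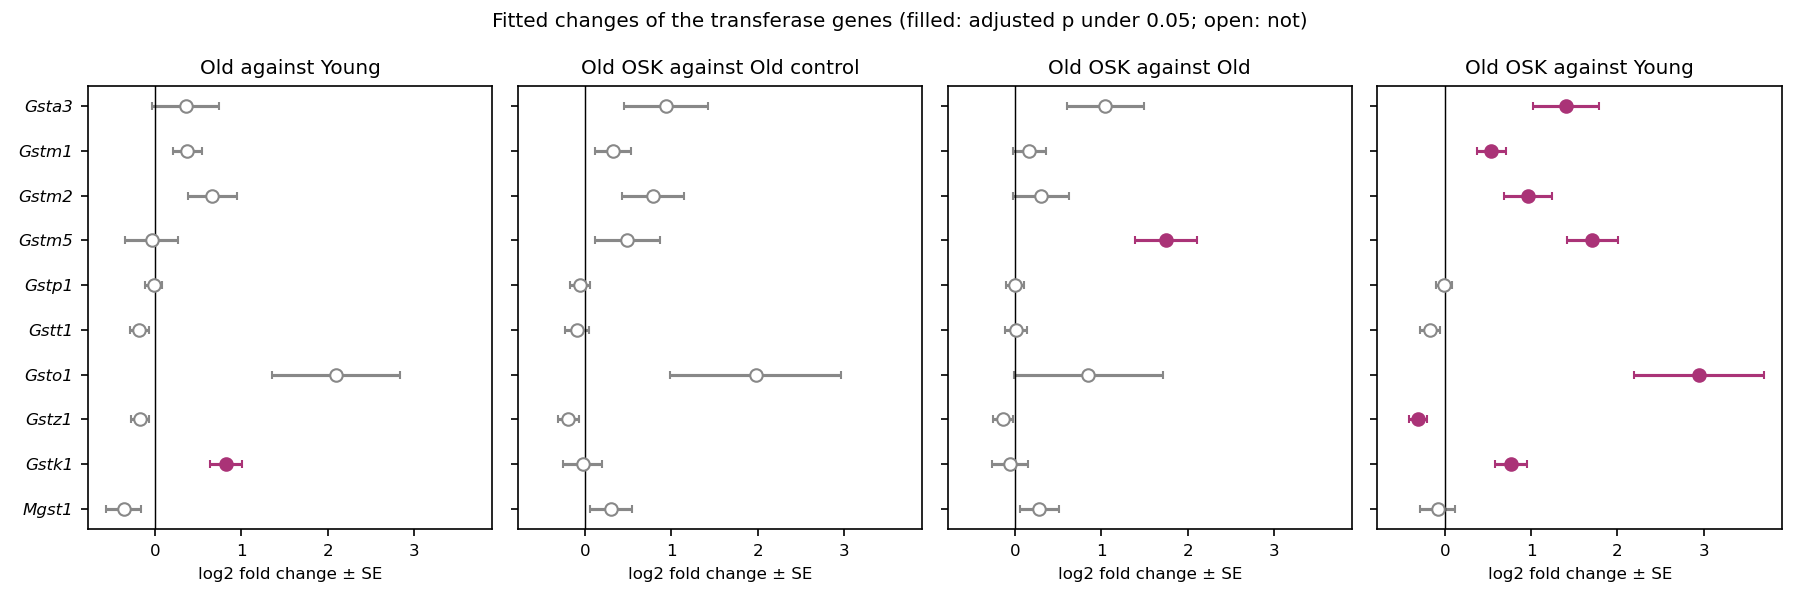
Fitted log2 fold changes with their SE (x axis) of the 10 genes (y axis) in 4 comparisons, filled where the adjusted p is under 0.05. Gstk1 is filled between Old and Young, Gstm5 between Old OSK and Old, and 7 genes between Old OSK and Young.

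The comparison of Old OSK with Old control asks what the factors change in vector-treated old mice. None of the 10 was called, against 0.728% of all rows. An unadjusted p under 0.05 was found for 1 of the 10 (Gstm2), beside 4194 of all 15944 rows. The median fitted change was 0.31 on the log2 scale beside -0.028 over all rows. The libraries of 1 member did not overlap between these groups, against 12.4% of all rows with no overlap in either direction. It was Gsta3, on chromosome 1 (chr1:21240589-21265661, plus strand), whose enzyme is known in mice for conjugating the epoxide of aflatoxin. It had 71.62, 232.1 and 293 CPM in the control libraries and 366, 466.7, 376.3 and 317.3 CPM in the Old OSK libraries. All Old OSK libraries exceeded all control libraries, and the difference of 0.94 (SE 0.49, adjusted p = 0.235 with edgeR) did not pass the test. Without control replicate 1 it was 0.54 (adjusted p = 0.614). That library had the lowest ciliary marker sum of its group, 43.59 CPM.

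Gstm5 behaved unlike the other mu genes in the controls. Its libraries had 94.05, 71.71 and 351.6 CPM in Old control and 216.7, 319.1, 246.8 and 184.8 CPM in Old OSK. Control replicate 3 was the highest of all 18 libraries, and the other 2 controls lay below every Old OSK library. The fitted difference was 0.49 (SE 0.38, adjusted p = 0.447 with edgeR), and without control replicate 3 it was 1.54 (adjusted p = 0.00596). Control replicate 3 also had the lowest rod marker sum of its group, 1976 CPM beside 4118 and 20780 CPM. Over all 18 libraries, with group means removed, Gstm5 and the rod score had r = -0.452 (rho = -0.366). With the rod score in the model the Gstm5 difference was 0.66 (SE 0.36, adjusted p = 0.254).

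Gsto1 had 534.1, 3227 and 1376 CPM in Old control and 11260, 7429, 6842 and 1450 CPM in Old OSK. Old OSK replicate 4 fell inside the control range and the other 3 lay above it, for a difference of 1.98 (SE 0.99, adjusted p = 0.215 with edgeR). With the ocular surface score in the model the difference was -0.32 (SE 0.44). Gstm2 had 13.1, 29.83 and 24.21 CPM in Old control and 42.16, 44.31, 42.62 and 25.12 CPM in Old OSK, and its difference of 0.78 (SE 0.36) had an adjusted p of 0.176 with edgeR. For the remaining 6 genes the fitted differences lay between -0.19 (Gstz1) and 0.33 (Gstm1). In the 3 pairs of libraries with the same replicate number, Gsta3, Gstm1, Gstm2, Gsto1 and Mgst1 were higher in Old OSK in every pair. The share of all rows with this pattern was not counted. Each of these genes was lowest of its group in control replicate 1. They also varied together within groups (r = 0.619 to 0.919 over 18 libraries), so they do not count separately. Whether libraries of the same replicate number belong together is not established. With the pairs as a replicate block the differences were 1.23 for Gsta3 (adjusted p = 0.135 with edgeR), 1.02 for Gstm2 (adjusted p = 0.0747) and 2.60 for Gsto1 (adjusted p = 0.106), and none was called, while over all rows the calls went from 116 to 461. Gstz1 was called lower only when control replicate 2 was left out (-0.38, adjusted p = 0.0252).

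Control and Old OSK libraries were unevenly divided by the letter M, which 2 of 3 controls and 1 of 4 Old OSK libraries carry. Among libraries without it, 3 Old OSK libraries stood against the single control replicate 1, whose spread was then assumed to equal that of the other groups. In that fit the values were higher in Old OSK by 2.49 for Gsta3, 1.71 for Gstm2, 1.47 for Gstm5 and 0.86 for Gstm1. They rest on 1 control library, so no call is read from them. Gsta3, Gstm1 and Gstm2 were lowest of their group in control replicate 1. With M as a covariate over all 18 libraries none was called, and Gsta3 had 0.76 (adjusted p = 0.49). Within the Young group, 3 libraries with M against 4 without gave no called member, against 0.0271% of 14734 rows tested. Mgst1 and Gsto1 had fitted differences of -0.54 (SE 0.20, adjusted p = 0.359 with edgeR) and -1.38 (SE 0.79, adjusted p = 0.442) there.

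Old control and Old differ by the vector without the factors. No member was called, and none of all rows was (0%), with 596 rows at an unadjusted p under 0.05. DESeq2 called none either. The Gstm5 difference, 1.26 (SE 0.37, adjusted p = 0.9 with edgeR), was 0.21 without control replicate 3. Gsto1 and Gstm2 had -1.13 and -0.48, and the other 7 members lay between -0.16 (Gstm1) and 0.11 (Gsta3).

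Further contrasts set Old OSK against the untreated groups. They share the Old OSK libraries with each other and share Old or Young with the age comparison, so each is given by its own values. They also differ from their reference by vector injection as well as by the factors, which cannot be told apart there. Between Old OSK and Old, 1 of 10 members was called, against 0.84% of all rows. Of the others, Gsto1 had a fitted difference of 0.85 (SE 0.86, adjusted p = 0.672 with edgeR), Gstm2 0.30, Mgst1 0.28, Gstm1 0.17, Gstt1 0.01, Gstp1 0.006 and Gstz1 -0.13, and none of these passed. Against Young, 7 of 10 were called in Old OSK, beside 46.4% of all rows, 6 higher and 1 lower. The median fitted change of the 10 in the latter was 0.65 beside 0.06 over all rows.

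The libraries of the alpha-class gene Gsta3 did not overlap between Old OSK and the groups without vector. Young libraries had 46.63 CPM at the lowest, 157 at the median and 230.7 at the highest, and Old libraries had 137.3, 174.1, 154.2 and 273.4 CPM. The Old OSK libraries, from 317.3 to 466.7 CPM, lay above all of these. The share of all rows without overlap was not counted for the contrasts with Young or Old. Gsta3 was higher than in Young by 1.40 (SE 0.38, adjusted p = 0.00729 with edgeR), and in every one of the 11 fits that left out a library. Against Old its difference of 1.05 (SE 0.45, adjusted p = 0.268) did not pass. With both marker scores in the model the difference from Young was 0.88 (SE 0.24, adjusted p = 0.0332), and with the ocular surface score alone it was 0.31 (adjusted p = 0.651). Few reads could be shared with other genes: of 4389 windows of 50 bases in its annotated transcripts, 0.273% occurred elsewhere in the annotated transcripts.

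The mu genes lie side by side on chromosome 3. In the order Gstm5, Gstm7, Gstm6, Gstm3, Gstm2, Gstm1 and Gstm4 they run from chr3:107895821-107898686 (Gstm5, plus strand) to the Gstm4 gene that ends at base 108044894, and all but Gstm5 lie on the minus strand. Gstm5 had 60.25 CPM at the lowest, 68.17 at the median and 87.58 at the highest in Young and 78.64, 71.7, 77.15 and 60.1 CPM in Old. The Old OSK values of 184.8 to 319.1 CPM were above all 11 libraries without vector. Gstm5 was higher by 1.71 than in Young (SE 0.30, adjusted p = 0.000428 with edgeR), or 3.27-fold, and by 1.75 than in Old (SE 0.36, adjusted p = 0.0257). The call against Young held in each of the 11 fits without 1 library (1.55 to 1.78), whereas that against Old held only without Old OSK replicate 4 or Old replicate 4, with adjusted p between 0.0598 and 0.117 in the other 6. With both marker scores in the model the difference from Young was 1.96 (SE 0.52, adjusted p = 0.0303).

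The other genes of the cluster had other patterns in the same contrast. Gstm7, next to Gstm5, ran from 7.023 to 16.73 CPM over the 18 libraries and was called lower in Old OSK than in Young (-0.49, adjusted p = 0.0382), and Gstm4, from 8.747 to 14.52 CPM, was not called (0.27, adjusted p = 0.094). Gstm2 had 8.269, 21.04 and 27.8 CPM at the lowest, median and highest in Young, and was higher in Old OSK by 0.96 (SE 0.28, adjusted p = 0.0111 with edgeR) with overlapping groups. Gstm1 had 31.39, 57.23 and 66.93 CPM in Young and 86.6, 74.78, 78.65 and 70.68 CPM in Old OSK. Every Old OSK library of Gstm1 was above every Young one, by 0.54 in the fit (SE 0.17, adjusted p = 0.0142), and the call was lost without Old OSK replicate 1 (adjusted p = 0.0652). The sum over the 7 Gstm genes, which does not depend on how reads are divided among them, ran from 149.6 to 202.1 CPM in Young, 191.8 to 204.9 in Old, 175.6 to 475.9 in Old control and 303.3 to 459 in Old OSK.

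**Figure D3:**
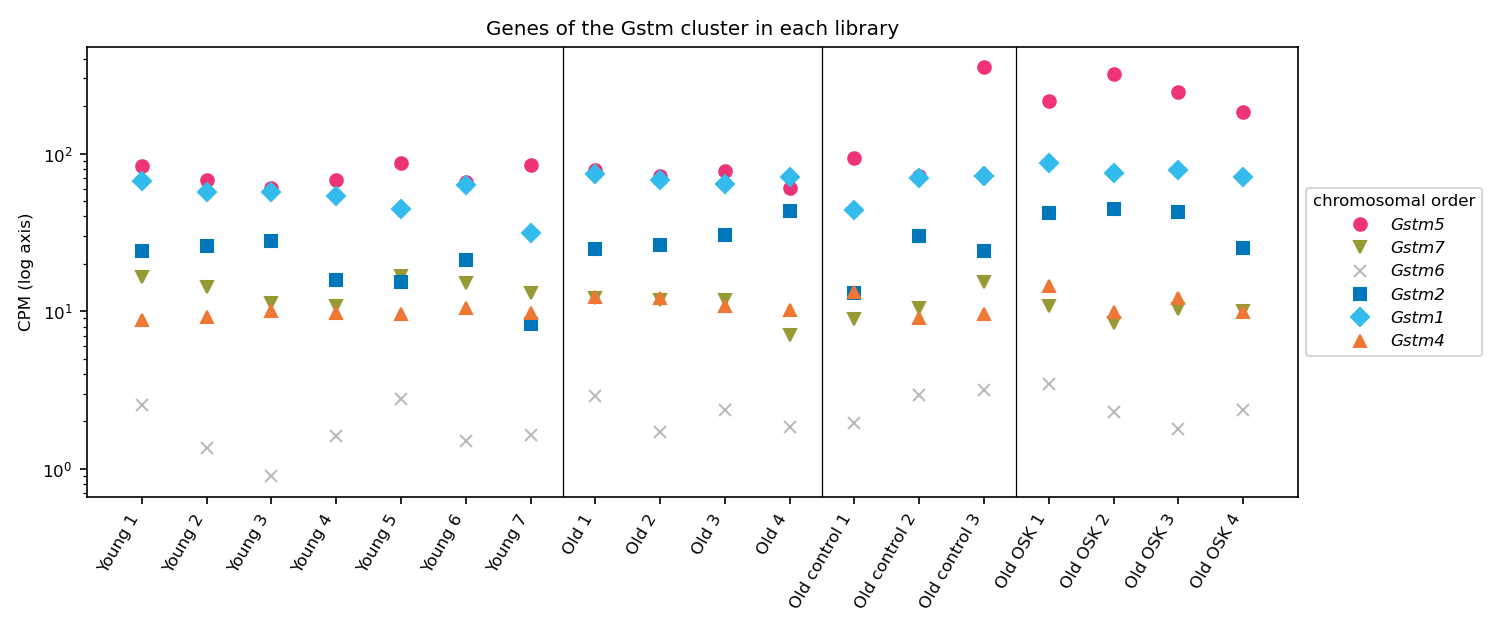
CPM (log axis) of 6 genes of the Gstm cluster in each library (x axis: group and replicate), in chromosomal order in the legend; Gstm3, with at most 10 counts, is left out. Gstm5 stands above 180 CPM in the 4 Old OSK libraries and in Old control replicate 3 alone, while Gstm7, Gstm6 and Gstm4 stay below 17 CPM.

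Shared sequence limits some of these values. Gstm1 shared 18.9% of its 50-base windows with other annotated transcripts, mostly the pseudogene Gstm2-ps1, and Gstm2 shared 5.65%. Gstm5 shared 9.44% of its windows, all 129 with the overlapping antisense transcript 4933431E20Rik. The library kits named in the labels do not mark strand, so reads from the overlap cannot be assigned to either gene. For Gsto1, Gstt1, Gstk1 and Mgst1 no window was shared.

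The upstream sequences of the 3 members that hold the core of an antioxidant response element, the site to which NRF2 binds with small Maf proteins, are shown because Gsta3 and Gstm5 were among the members higher in Old OSK than in Young. The letters searched were TGACNNNGC on both strands, in windows of 250 bases before to 50 bases after each start, from RefSeq on GRCm38.p6, and the match is in capitals. Of 32851 such windows over all genes 12.4% held a match. Among the members, 3 of 10 genes held a match in a window. A window was found for all 10, with 13 windows together, so this share by gene is not on the scale of the share by window.
Gsta3: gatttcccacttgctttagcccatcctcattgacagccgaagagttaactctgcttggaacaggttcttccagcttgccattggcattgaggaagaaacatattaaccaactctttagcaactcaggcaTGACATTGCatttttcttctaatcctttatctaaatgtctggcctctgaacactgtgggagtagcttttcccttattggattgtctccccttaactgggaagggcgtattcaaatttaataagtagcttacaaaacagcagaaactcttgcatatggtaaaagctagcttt
Gstm5: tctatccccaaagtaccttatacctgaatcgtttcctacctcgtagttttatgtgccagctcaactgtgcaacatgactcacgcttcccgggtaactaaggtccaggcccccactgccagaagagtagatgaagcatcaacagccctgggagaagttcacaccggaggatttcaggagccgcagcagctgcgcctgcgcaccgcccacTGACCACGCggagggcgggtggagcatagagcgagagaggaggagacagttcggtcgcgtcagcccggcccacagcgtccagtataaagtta
Mgst1: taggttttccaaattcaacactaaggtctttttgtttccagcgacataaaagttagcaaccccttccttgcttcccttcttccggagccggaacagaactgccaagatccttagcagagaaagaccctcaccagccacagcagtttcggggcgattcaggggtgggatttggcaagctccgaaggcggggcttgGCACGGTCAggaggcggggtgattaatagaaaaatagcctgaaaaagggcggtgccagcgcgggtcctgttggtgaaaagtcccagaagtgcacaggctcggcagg
The windows are chr1:21240335-21240634 (plus strand) for Gsta3, chr3:107895604-107895903 (plus strand) for Gstm5 and chr6:138140277-138140576 (plus strand) for Mgst1. Another Mgst1 window, chr6:138141337-138141636, held no match. The match begins 121 bases before the start of Gsta3 and 42 before that of Gstm5, and in Mgst1 it lies on the opposite strand, with its first base in the printed direction 56 before the start. The AP-1 site TGACTCA, found in 5.2% of all windows, occurred in Gstm5 and Gstp1. The octamer ATGCAAAT, which Oct4 binds, was in 1.74% of all windows and in none of the 13 members' windows, and the CACCC box CCACACCC, a Klf-type site, was in 3.56% and only in Gstm1 among the members. A match describes the letters and not binding.

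Gstm7, the neighbour of Gstm5 that was called lower, also held the antioxidant core in the window chr3:107931565-107931864. The window of its other start, chr3:107931768-107932067, did not hold it. Gstm7 had 8.439 to 10.84 CPM in Old OSK beside 10.77 to 16.73 CPM in Young.

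The pi gene Gstp1, at chr19:4035407-4037985, had 83.05, 97.05 and 105.9 CPM at the lowest, median and highest in Young, 103.7, 93.7, 95.37 and 88.37 CPM in Old, and 105.2, 83.22, 91.98 and 102.4 CPM in Old OSK. The groups overlapped throughout and the difference of Old OSK from Young was -0.012 (SE 0.094, adjusted p = 0.931 with edgeR). Gstp1 took 98.2% to 99.7% of the counts of the 3 Gstp genes, although 33.7% of its windows were shared with Gstp2. Gstt1, at chr10:75783813-75798584, had a fitted difference of -0.17 from Young (SE 0.11, adjusted p = 0.236) over values between 32.76 and 51.96 CPM in all libraries. Gstt2, of the same class and chromosome, was called lower in Old OSK than in Young (-0.95 on the log2 scale, adjusted p = 0.00147 with edgeR).

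Gsto1 was higher in Old OSK than in Young by 2.94 (SE 0.75, adjusted p = 0.005 with edgeR), or 7.68-fold, with overlap: Old OSK replicate 4, at 1450 CPM, lay below the Young maximum of 2335 CPM. The call held in all 11 fits without 1 library. All 8 ocular surface markers were called higher in the same contrast, with a median change of 2.96. With their score in the model the Gsto1 difference turned to -0.43 (SE 0.48, adjusted p = 0.613), and with both scores to -0.21 (SE 0.51). Gstm2 turned to -0.05 (SE 0.25) with the ocular surface score. Gsta4 itself was higher by 2.18 in this contrast (adjusted p = 0.000312).

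Gstz1, the enzyme that isomerises maleylacetoacetate in tyrosine breakdown, was the one member called lower. At chr12:87147165-87164723, it had 39.22, 45.16 and 53.31 CPM at the lowest, median and highest in Young and 36.02, 37.75, 38.35 and 34.55 CPM in Old OSK. No Old OSK library reached the lowest Young one, and the fitted change was -0.31 (SE 0.10, adjusted p = 0.0217 with edgeR), which held in all 11 fits without 1 library. Gstz1 deviated against the rod marker score within groups (r = -0.74, rho = -0.785, n = 18), and 12 of 13 rod markers were called higher in Old OSK than in Young, with sums of 479 to 3550 CPM in Young and 3288 to 17500 CPM in Old OSK. With the rod score in the model the change was -0.11 (SE 0.10, adjusted p = 0.451), and among libraries without M it was -0.27 (adjusted p = 0.076). Gstz1 shared 9.39% of its windows, mostly with the overlapping gene Pomt2.

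Gstk1 was higher in Old OSK than in Young by 0.77 (SE 0.18, adjusted p = 0.00334 with edgeR), with 39.36, 29.51, 29.08 and 30.86 CPM all above the Young maximum of 21.61 CPM. From Old to Old OSK it had -0.05 (SE 0.21, adjusted p = 0.918), and between Old OSK and Old control -0.023 (SE 0.23, adjusted p = 0.967). In Old control it read 45.59, 18.64 and 33.97 CPM, with replicate 2 within the Young range. That library had the lowest RPE marker score of its group, 8.47, and its highest rod marker sum, 20780 CPM. With both marker scores in the model its difference from Young was 1.06 (SE 0.27, adjusted p = 0.0261). The membrane-bound Mgst1, at chr6:138140316-138156755, had 97.3, 125.3, 116.1 and 112.9 CPM in Old OSK within the Young range of 69.07 to 175.6 CPM, and a difference of -0.08 (SE 0.20, adjusted p = 0.764).

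With the immune score in the model none of the 10 was called between Old OSK and Young, and Gsta3, Gstm1, Gstm2 and Gsto1 changed sign (-2.11, -0.09, -1.64 and -1.25). Of 12 immune markers 11 were called higher and 1 lower in that contrast, and their scores did not overlap (5.17 to 5.51 in Old OSK against 2.67 to 3.24 in Young). The score thus separates these groups as the labels do, so its part and that of the group cannot be told apart.

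**Figure D4:**
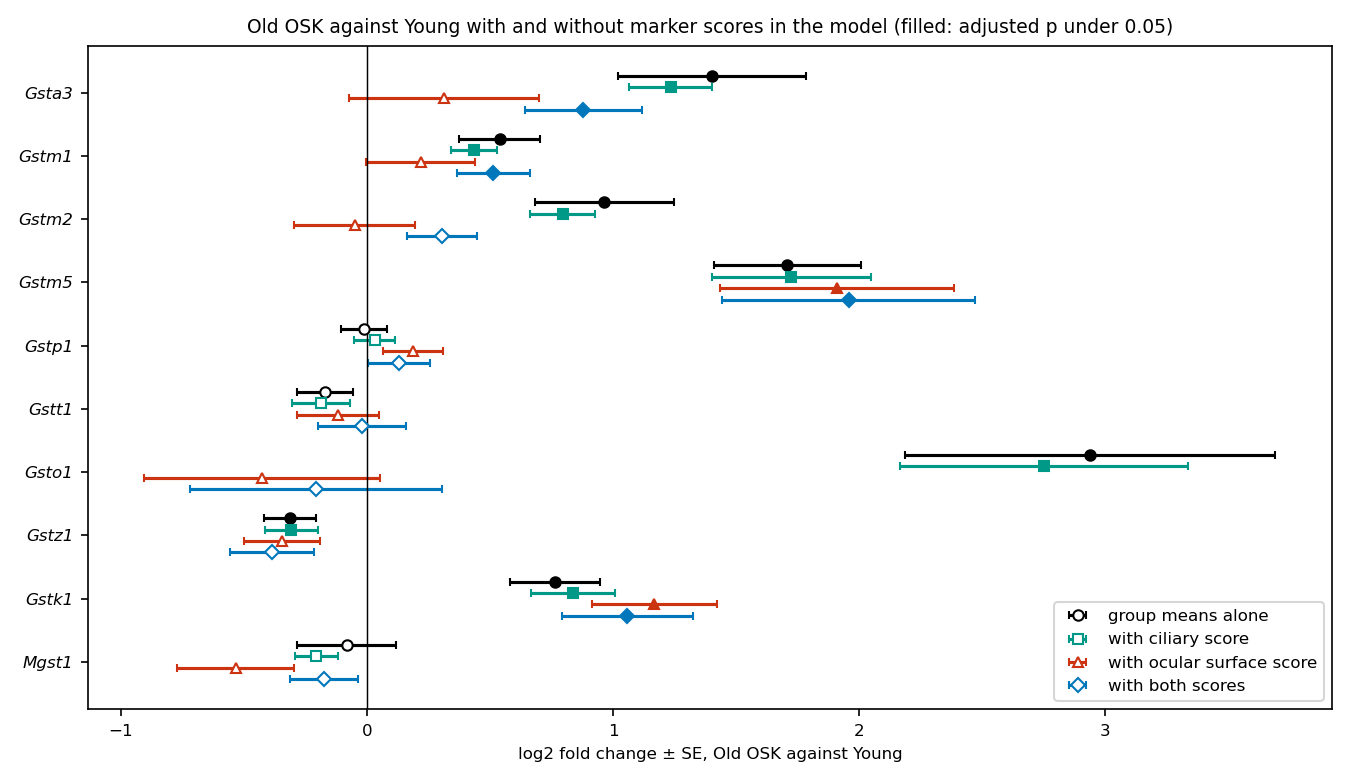
Log2 fold change of Old OSK against Young with its SE (x axis) for the 10 genes (y axis), fitted with group means alone, with the ciliary score, with the ocular surface score and with both, filled where the adjusted p is under 0.05. Gstm5 and Gstk1 are filled in all 4 fits, and Gsto1 falls from 2.94 to -0.43 with the ocular surface score.

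Some members varied together once group means were removed. Over the 18 libraries, deviations of Gsta3 and Gstm2 correlated with r = 0.919 (rho = 0.932), Gstm2 and Gsto1 with r = 0.893, Gsta3 and Mgst1 with r = 0.876, and Gsta3 and Gstm1 with r = 0.845. Gsta3, Gstm1, Gstm2 and Mgst1 followed the ciliary score (r = 0.926, 0.881, 0.918 and 0.932), and Gsto1 the ocular surface score (r = 0.942, rho = 0.893). Gstm5 followed neither (r = -0.083 and -0.152). Gstp1 and Gstk1 followed the RPE score (r = 0.790 and 0.772), and Mgst1 also the Müller glia score (r = 0.829). These values describe libraries that share depth and composition, they rest in part on Young replicate 7 and Old control replicate 1, which were lowest of their groups for the ciliary score, and the part of these cells in the transferase values was not tested beyond the models with their scores.

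**Figure D5:**
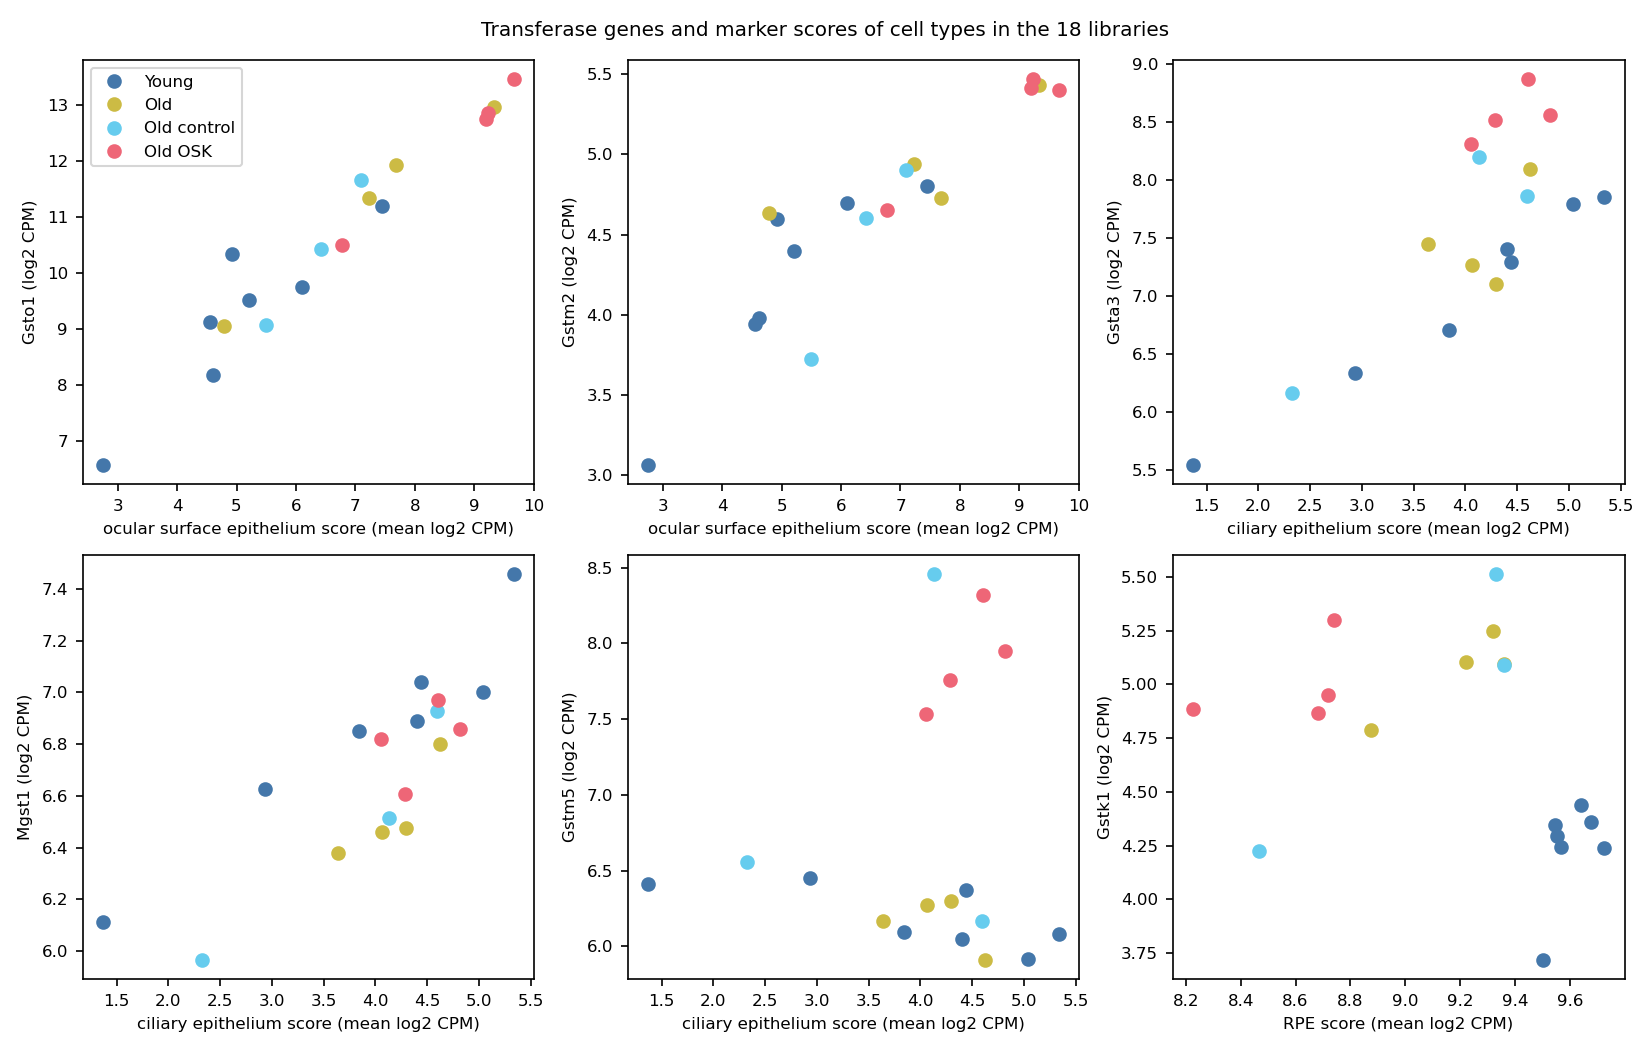
Log2 CPM of Gsto1, Gstm2, Gsta3, Mgst1, Gstm5 and Gstk1 (y axis) against marker scores (x axis: mean log2 CPM of the ocular surface, ciliary or RPE markers; each point 1 of 18 libraries, coloured by group). Gsto1 rises along the ocular surface score over all 4 groups, while Gstm5 stands between 184.8 and 319.1 CPM in Old OSK at ciliary scores that Young libraries also reach.

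The genes whose deviations were most like each member's over the 18 libraries differed between members. For Gsto1 they were St6galnac1 (r = 0.994) and Elf3 (r = 0.992), the latter a transcription factor of epithelia. For Gstm2 they were Tnfrsf21 and Lgi2 (r = 0.982 each), for Mgst1 Sorcs1 (r = 0.985) and Colgalt2 (r = 0.969), and for Gsta3 Gm7694 (r = 0.958) and Socs3 (r = 0.956). Gstm1 was nearest to Kcnh1 (r = 0.919) and Raet1e (r = 0.913), Gstp1 to Mcrip1 (r = 0.954) and Cystm1 (r = 0.949), and Gstz1 to Mppe1 (r = 0.912) and Ccdc17 (r = 0.832). Dnase2a was among the nearest to Gstk1 (r = 0.893), Gstt1 was nearest to Klhdc8b (r = 0.889) and Zfp286 (r = 0.866), and Gstm5, whose leading value was the lowest of the 10, to Cyb5r3 (r = 0.869) and Vinac1 (r = 0.859). Gsta4 deviated with Gsto1 (r = 0.809) and Gstm2 (r = 0.595), and with Gstm5 hardly at all (r = -0.045).

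The other genes of the pathway are given beside 9.56% of all rows called between Old and Young and 46.4% between Old OSK and Young, and the shares of the lists were not tested against these. Of 19 other transferase-family genes tested, 3 were called higher in Old than in Young: Gsta4 by 1.29 (adjusted p = 0.0375 with edgeR), Mgst2 by 3.34 (adjusted p = 0.00688) and Alox5ap, the 5-lipoxygenase activating protein, by 1.33 (adjusted p = 0.0277). Mgst2 and Alox5ap were below 2 CPM on average in both groups. Of 14 genes of glutathione supply, 2 were called lower in Old, Gclc (-0.52, adjusted p = 0.00451) and Gclm (-0.39, adjusted p = 0.0347), the subunits of the enzyme that limits glutathione synthesis. Of 21 genes of conjugate export and breakdown, Abcc3, an export pump, was higher by 0.94 (adjusted p = 0.0355) and Ggt1, which starts the breakdown of glutathione conjugates, was lower (-1.67, adjusted p = 0.00027). Of 14 NRF2 regulators and targets, the small Maf genes Mafk (0.93) and Maff (1.54) were higher and Nqo1 (-0.96), Gclc and Gclm were lower. None of 5 genes of tyrosine breakdown was called.

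None of the genes in these lists was called between Old OSK and Old control. Against Old only the aminopeptidase gene Lap3 was, higher by 0.88 (adjusted p = 0.0237 with edgeR). Between Old OSK and Young, 7 of the 19 other transferase genes were called higher and 6 lower, led by Mgst3 (1.56, adjusted p = 0.000214), Gsta4, Mgst2 (3.82), Alox5ap (1.79), Gstcd (-0.78) and Gstt2. In glutathione supply 5 of 14 were higher, among them Gss (0.88), G6pdx (0.87) and Pgd (0.56), and 6 were lower, among them Gclc (-0.71), Gclm (-0.73) and Chac2 (-1.06). Export and breakdown genes had 6 higher and 5 lower of 21, and NRF2 regulators and targets 6 higher and 3 lower of 14.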

How the data were processed

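SMART-Seq v4 cDNA of TRIzol-extracted polyA RNA went into Nextera XT libraries, per the labels' protocols. The authors deposited 1 table of raw read counts per gene for all 18 libraries. Per the submitters' processing notes, STAR 2.7.1a and featureCounts 1.6.2 were used, and mouse and human builds are named (GRCm38 or mm10, GRCh38 or hg38). The annotation, strand setting and treatment of reads that match several genes are not given in the sources used here. Gene positions are those of GENCODE M21 on GRCm38, in which all 10 genes were found, and lengths are of merged exons.

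With edgeR 4.0.16 in R 4.3.3, rows were kept by filterByExpr (at least 10 counts and a total of 15), scaled by TMM and fitted over all 18 libraries by the quasi-likelihood test with 1 mean for each of the 4 groups. P-values were adjusted by Benjamini-Hochberg over 15944 rows, and a gene is called at an adjusted p under 0.05. Standard errors are the fold change divided by the square root of F. Log2 CPM uses a prior count of 2, and a marker score is the mean log2 CPM of a list. The script was tested on simulated data. The members and lists were chosen with earlier results of these data known. All 10 genes are reported in every comparison, some by their range, the called genes of other lists up to the 6 with the lowest p, and for each member the 2 genes of highest correlation. An item that meets this rule is not reported here. Alternatives were other normalizations and filters, DESeq2 1.42.0, robust fits, the compared groups alone, marker scores or M as covariates, libraries without M, leaving out each library, and a replicate block. The ocular surface and ciliary lists and their models were chosen after seeing the data.

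In all 36 replicate pairs the chi-square per gene was at least 21.2, above sampling noise, and none was merged. For Old OSK and Old control libraries of the same replicate number, deviations from their group means were correlated across genes (r = 0.103, 0.421 and 0.339 for numbers 1, 2 and 3). The numbers were taken as pairs in an alternative fit, and the block changed no member's call there. Within the library names the numbers differ in every such pair, and pairs of unlike replicate number were not examined. The pairing is therefore not established. Values of similar size occurred elsewhere, with 0.021, 0.154, 0.091 and 0.352 for Old OSK and Young and 0.197, -0.189 and 0.359 for Old control and Old. The values ran from -0.491 to 0.185 for Old OSK and Old and from -0.193 to 0.144 for Old and Young. This check alone thus cannot tell pairs from other libraries. Reads were PCR-amplified and not counted by molecule, so the error is at least the counting error.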

Additional observations from a re-analysis of the deposited data

Results flagged for a closer look

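Of 30 groups of member values large enough to test, 2 held a library farther from the rest than Dixon's 95% limit allows, where chance gives about 1 in 20. Gstm2 had 25.12 CPM in Old OSK replicate 4 and 42.16 to 44.31 CPM in the other 3, a gap of 0.888 of the group's range. That library is the only Old OSK library with a letter M in its name and had the lowest ocular surface marker sum of its group, 3320 CPM. Gstk1 had 13.08 CPM in Young replicate 3 and 18.81 to 21.61 CPM in the other 6, a gap of 0.672 of the range. Young replicate 3 had the highest ocular surface marker sum of its group, 5122 CPM. The part of these markers in the 2 values was not tested.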

How the results depend on the processing

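Of 1260 fitted member values under alternatives, 1095 kept their direction and their side of the threshold, and 121 changed sign with no call before or after. Without a change of sign, 23 lost and 14 gained a call. The other 7 went from a called value to an uncalled one of the opposite sign. These 7 were all in Old OSK against Young, and none has a called opposite direction. With the immune score, which does not overlap between these groups, they were Gsta3 -2.11, Gstm1 -0.088, Gstm2 -1.64 and Gsto1 -1.25. With the ocular surface score they were Gstm2 -0.05 and Gsto1 -0.43, and with both scores Gsto1 -0.21. The number of members called between Old and Young, 1 in the main model, was 5 with the ciliary score, 2 with DESeq2, 0 with the immune score and 0 with the replicate block, and 1 to 2 with 1 library left out. Not counting the fit of libraries without M, which held 1 control library, it was 0 between Old OSK and Old control in the main model. There it was also 0 with the replicate block and 0 to 1 with 1 library left out. For Old OSK against Old it was 1, and 2 with the ciliary score, 0 with the immune score, 0 with the replicate block and 0 to 1 with 1 library left out. Against Young it was 7 in Old OSK, and 0 with the immune score, 2 with the ocular surface score, 4 with both scores, 6 with the replicate block and 6 to 7 with 1 library left out. It was 0 in every alternative for Old control against Old and for Young with M against Young without. The counts over all rows moved more: between Old OSK and Old control, 116 in the main model, they were 13 without control replicate 1, 2881 without control replicate 2, 2 with these groups alone, 461 with the replicate block and 1603 with DESeq2. Between Old and Young, 1524 in the main model, they were 393 without Old replicate 4, 2140 without Old replicate 1, 0 with the replicate block and 2452 with DESeq2. For Old OSK against Old, 134 in the main model, they were 50 without Old OSK replicate 2, 1045 without Old replicate 4, 18 with the immune score, 1 with the replicate block and 454 with DESeq2. Against Young, 7401, they were 21 with the immune score, 5892 to 7293 with 1 library left out and 7737 with DESeq2. For the fits with the ciliary score, the ocular surface score or both, counts over all rows are not given here. The member counts of those fits therefore have no share of all rows beside them. The causes of these differences were not tested. The comparison of Old OSK with Old control rests on 3 control libraries, 1 of them without M.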
